A study of Aedes aegypti with 7 samples.

Results

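The members described here are 201 hairpin loci from the authors' miRDeep2 prediction on small RNA reads of mosquito fat body. The prediction table is held here in part, all 201 rows held were taken, and every count below refers to these rows. Of these, 17 carry a name from an earlier publication and 184 do not. The fat body came from adult females of Aedes aegypti, strain UGAL/Rockefeller, and is the tissue that stores nutrients and makes yolk proteins after a blood meal. Small RNA was sequenced in 15 libraries, 3 at each of 5 times. One time precedes any blood, 72 h after adults emerged (post eclosion, PE), and the others follow a blood meal by 6, 24, 36 or 48 h (PBM). AGO1 CLIP-seq was done in 6 libraries, 3 of 72 h PE females and 3 of females at 24 h PBM, and its table holds 100836 peaks. In CLIP-seq, RNA is linked to the protein that touches it by ultraviolet light, an antibody then collects the protein, and the RNA still bound is read. The replicates are described as independent and biological. No unfed females of the later times are among the samples, so the meal and greater age cannot be told apart.

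A microRNA (miRNA) is cut from a hairpin-shaped precursor. The cut leaves a duplex of the mature strand and the opposite, star, strand, and the mature strand is kept by an Argonaute protein, which in insects is mostly AGO1. Bases 2 to 8 of the mature strand, the seed, pair with messenger RNAs. miRDeep2 looks in small RNA reads for stacks that fit such a cut, counts the reads of mature and star strand, and gives each hairpin a score that rises with the evidence. Reads of both strands, sharp 5′ ends and presence in AGO1 are the usual marks by which a predicted miRNA is judged, whereas fragments of other RNAs and small interfering RNAs can give hairpins of the same kind.

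The loci on which the results turn are shown first, as the prediction table gives their precursors, 5′ to 3′, with the mature strand in capitals. The first has by far the most AGO1 counts of all members, the second has the most small RNA reads, and the other two are loci with reads on both strands.

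supercont1.309_14750: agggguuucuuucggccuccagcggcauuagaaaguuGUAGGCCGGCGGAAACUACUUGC

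supercont1.202_23244: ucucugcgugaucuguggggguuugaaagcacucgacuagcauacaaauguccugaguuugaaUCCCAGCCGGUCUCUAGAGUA

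supercont1.2335_31826: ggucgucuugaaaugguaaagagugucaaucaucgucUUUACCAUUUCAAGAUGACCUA

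supercont1.150_16127: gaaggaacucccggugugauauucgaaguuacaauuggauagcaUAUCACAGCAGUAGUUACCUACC

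The mature strands of further members named below follow, with the seed in capitals. They are shown because they stand for the members of many copies, the members with AGO1 counts at a low score, and the documented members.

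supercont1.638_15947: uUGUUGUUgagacggugccu

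supercont1.154_46511: uUCCUGACuuauacgcuuaccu

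supercont1.602_8820: aAAGGAACuucuguugugaucu

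supercont1.216_44251: aGCAGGAGugaaugcaugaguu

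supercont1.151_11634: cAUGAACGacgacgugacgccg

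supercont1.32_13116: uAGUAAGCauugauuuuguagc

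supercont1.2944_2578: uAGUAAACcuugauuuuguagc

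supercont1.329_39551: cUGAAGGCggucugcacucgg

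supercont1.141_12513: uUGGUGUUauaucuuacagugag

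supercont1.620_32245: aUUAGAAUguggaaucuguuu

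The scores ran from 0 to 209426.6 with a median of 2.4, and they fell into 2 ranges. No member had a score between 3.1 and 5.2. Above that gap lay 79 members, of which 71 scored at least 10, and below it 122. The members just above 5 were supercont1.178_40634 (score 5.2, 11 mature and 4 star reads) and supercont1.332_1111 (5.8, 17 and 2). Those just below were supercont1.226_3232 (3.1, 6362 mature reads and no star read) and supercont1.272_4246 (3.1, 48 mature and 114 star reads). All 79 members above 5 had at least 1 star read, while 85 of the 122 below 5 had none. The score itself takes star reads as evidence, so this difference does not stand apart from it. By randfold, a test of whether a hairpin folds better than shuffled sequence, 49 of the 79 members above 5 were significant. Below 5, 121 of the 122 were. Randfold can itself enter such a score, so this contrast does not stand apart from it either and is not read as a difference in folding. Mature reads overlapped widely between the ranges, from 11 to 410613 with a median of 263 above 5, and from 9 to 9205 with a median of 51 below.

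**Figure D1:**
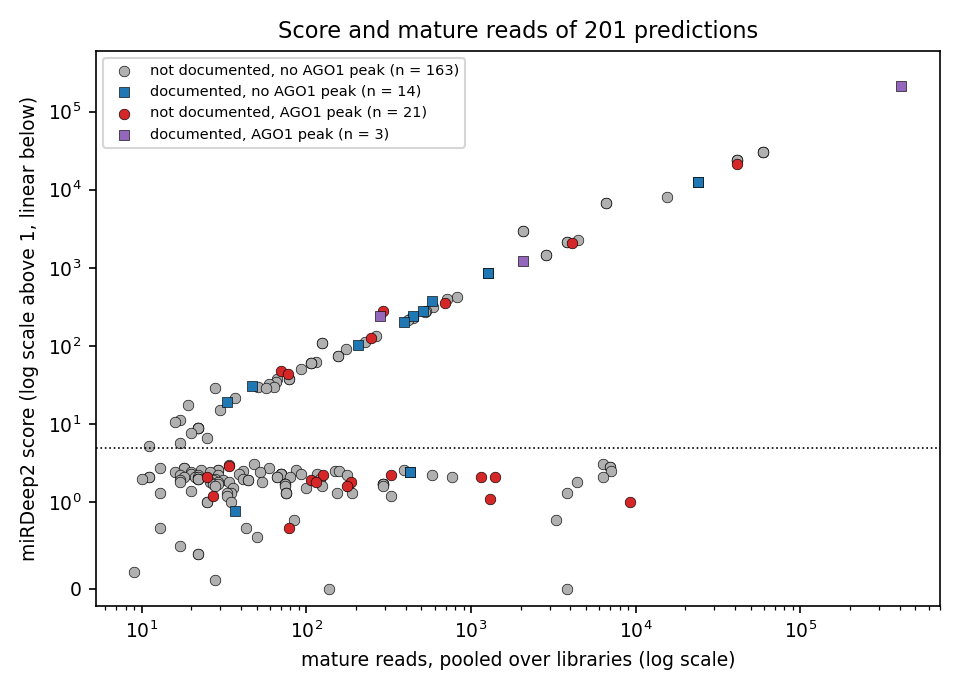
Each point is 1 of the 201 predictions, placed by its mature reads pooled over libraries (log axis) and its miRDeep2 score (log above 1, linear below); squares are documented members, red and purple points have an AGO1 peak, and the dotted line is a score of 5. Members above the line rise with their reads, those below it lie between 0 and 3.1 at up to 9205 reads, and members with an AGO1 peak occur in both ranges.

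Many rows shared a mature strand. The 201 precursors held 146 distinct mature strands, of which 110 occurred in 1 precursor and 36 in several, and the table gives the reads of a shared strand anew at each of its precursors. The sum of 943913 mature reads over the rows therefore counts reads more than once, and over distinct strands, each taken at its highest row, it was 627906. Of these, supercont1.202_23244, documented as aae-miR-new12, held 410613 (65.4%), and the 5 strands with most reads together held 87.7%. supercont1.202_23244 had 173 star reads and was not called significant by randfold. Of the 88 known miRNA families of the authors' miRNA table, their arms summed over the 15 libraries, 14 had more reads than it. A known family is here a miRNA name without its arm, so mir-2a, mir-2b and mir-2c are counted apart.

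Of the members without an earlier name, those with the highest score were 3 copies of 1 strand, on supercont1.638, supercont1.1792 and supercont1.240. Each had 59655 mature reads and 1 star read, scored 30409.6 to 30426.3, and was not called significant by randfold. Next came a group of 5 precursors with the seed UUACCAU. In 4 of them, 2 on supercont1.2335 and 2 on supercont1.210, the mature strand was identical, with 41024 or 41043 reads at each copy and 867 or 5627 star reads. The fifth, supercont1.2335_31827, differed from it by 1 substitution (G14U, positions counted from the 5′ end), with 15381 mature and 540 star reads. All 5 were significant by randfold, and their scores were 8118.3 to 23795.1.

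Last among the 10 undocumented members of highest score were supercont1.150_16127 and supercont1.602_8817, which had the same precursor sequence. They held nearly equal reads on both strands, 6579 mature and 6558 star reads, at a score of 6699.5, and were not called significant by randfold. Their seed AUCACAG is that of the K-box family, which in Drosophila includes miR-2, miR-11, miR-13 and miR-308. Downstream of each, with starts 203 bases apart, lay a second hairpin, supercont1.150_16130 or supercont1.602_8820, with 2845 mature and 15 star reads, also not significant by randfold.

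Star reads reached or exceeded mature reads in 3 members, named here after their values were seen. These were supercont1.216_44251 and supercont1.396_28726, identical in precursor sequence, with 2077 mature and 3724 star reads each, and supercont1.272_4246. Over all members the median was 1 star read, 50 members had at least 10, and 85 had none.

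The 17 documented members scored higher at the median, 241.8 against 2.3 for the 184 others, and 14 of the 17 scored at least 5 against 65 of the 184. Their median mature reads were 441 against 74 and their median star reads 173 against 1. By randfold 13 of the 17 were significant, against 157 of the 184 others. Of the 17, 8 were credited to Hu et al and 9 to Miesen et al in the table. After aae-miR-new12, the most abundant was aae-miR-new19, with 23960 mature and 541 star reads at each of 2 precursors on supercont1.154, followed by aae-miR-11918 (2059 and 352) and aae-miR-new5 (1269 and 398 at each of 2 precursors). Neither precursor of aae-miR-new19 was significant by randfold. aae-miR-new17 and aae-miR-new18 differed by 2 substitutions (A7G and C9A from aae-miR-new18 to aae-miR-new17), with 278 and 441 mature reads. The lowest scores among the documented members were 0.9 for aae-miR-11909-2, with 37 mature reads and no star read, and 2.4 for both precursors of aae-miR-11926, with 423 mature and 177 star reads each.

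Mature strands were 18 to 25 bases long. A length of 22 bases was most frequent with 85 members, 158 had 21 to 23 bases, 26 had 24 or 25, and 17 had 18 to 20. All 17 documented members lay between 21 and 23 bases, as did 141 of the 184 others. A U at the first base, which is frequent in insect miRNAs, stood in 85 of 201 members, followed by A in 54, C in 44 and G in 18. U stood first in 41 of the 79 members above a score of 5 and in 44 of the 122 below it. The mature strand lay on the 5p arm in 79 members. Precursors were 38 to 95 bases long, with a minimum free energy by RNAfold of −56.1 to −10.1 kcal/mol and a median of −22.8.

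Few members lay close to each other. They were spread over 159 supercontigs, and 18 members formed 8 clusters in which neighbours on the same strand started at most 10 kb apart. The cluster with most members was that of supercont1.2335, with 4 hairpins between positions 6654 and 10497 on the plus strand (AaegL3, counted from 1). Its first hairpin, supercont1.2335_31819, had the seed UAUUCCC, 93 mature and 3 star reads, and the other 3 carried the seed UUACCAU, with starts 1081, 1452 and 1252 bases after the one before. The 2 further hairpins of that seed started 2500 bases apart on the minus strand of supercont1.210. The remaining clusters had 2 members each, among them the hairpin pairs of supercont1.150 and supercont1.602 and supercont1.110_40713 with supercont1.110_40717, a pair of identical mature strands of 78 reads and a score of 37.7 that started 8823 bases apart. In 2 clusters, on supercont1.57 and supercont1.331, the members overlapped each other by 23 and 22 bases. No member lay within 10 kb of an AGO1 peak annotated as a known miRNA.

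Members with a shared seed were mostly copies of 1 mature strand. Beside the UUACCAU group, 5 precursors on 4 supercontigs shared the seed GCUUACA (22 mature reads at most, scores 7.7 to 8.8), and 5 on 5 supercontigs shared CACUAAA (292 reads at most, scores 1.6 to 1.7). A further 4 shared AUGACAG, with 70 reads at most, no star read and a score of 2.3. None of these 14 precursors had an AGO1 peak. Of the documented strands, aae-miR-11921 had an undocumented copy, supercont1.268_30504 (score 2.6, 394 mature and 5 star reads).

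AGO1 peaks overlapped 24 of the 201 members (11.9%) by at least 10 bases on the same strand, with 25 peaks in all. On the opposite strand 2 members had such a peak, with 1 and 3 counts. The 24 included 3 of the 17 documented members and 21 of the 184 others, and 10 of the 79 members above a score of 5 and 14 of the 122 below it. The median score was 2.2 in members with a peak and 2.4 in those without, and the median mature reads were 263 and 70. In 10 of the 25 peaks a single count made up the peak, 15 had counts in 1 library, and 22 had 6 counts or fewer. Of all peaks, 56.2% held a single count, against 7.50% of the 120 peaks on known miRNA precursors, where the median was 72.5 counts. Per the authors' annotation 17 of the 25 lay outside any annotated feature (68%, against 43.2% of all peaks). Introns held 3 (12% against 11.2%), repeats 3 (12% against 5.06%) and coding sequence 2 (8% against 26.7%).

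The 5′ ends of most peaks coincided with those of the predicted strands, while few 3′ ends did to the base. Of the 25 peaks, 20 covered the mature strand and 5 the star strand. The 5′ end of the peak was the predicted 5′ end of the strand to the base in 17 of 25, and was within 1 base in 21. This held on both genome strands, with 9 of 11 peaks on the plus and 8 of 14 on the minus strand at the exact base. The 3′ ends matched exactly in 5 peaks and within 1 base in 15. The peaks with most counts, on supercont1.309_14750 (181) and supercont1.329_39551 (11), began 1 base before the predicted 5′ end. All exact 5′ matches were thus on peaks of 10 counts or fewer. The peaks with 5′ ends more than 2 bases away were longer than the strands, at 41, 46 and 63 bases. Lengths of 20 to 24 bases were found in 20 of the 25 peaks (80.0%), in 71.7% of the peaks on known miRNA precursors and in 23.5% of all peaks.

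**Figure D2:**
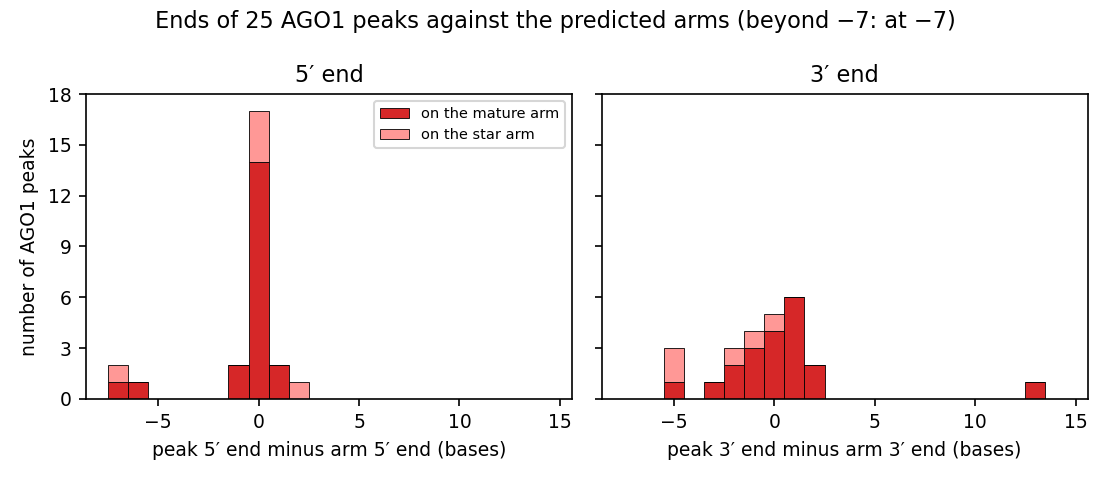
Histograms of the distance in bases from the predicted end of the covered strand to the end of the AGO1 peak, for the 5′ ends (left) and 3′ ends (right) of 25 peaks; dark bars are peaks on the mature and light bars on the star strand, and distances beyond −7 are drawn at −7. The 5′ ends pile up at 0 with 17 peaks, while the 3′ ends spread over several bases.

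One member had AGO1 counts in all 6 libraries. supercont1.309_14750 lies on the minus strand of AaegL3 supercont1.309:120075-120134 outside any annotated feature, and had a score of 2096.3, 4075 mature and 34 star reads. Its peak on the mature strand held 15, 31 and 30 counts at 72 h PE and 47, 28 and 30 at 24 h PBM, 181 in all. A second peak lay on its star strand, with 2 counts in 72 h PE replicate 2 and 2 in 24 h PBM replicate 1. The libraries of both times overlapped. The 5′ end of the main peak lay 1 base before the predicted one, and that of the star peak on it.

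Scaled to the tested counts (TMM, a trimmed mean scaling, as CPM), the main peak of supercont1.309_14750 stood at 564 ± 202 at 72 h PE and at 624 ± 92.8 at 24 h PBM (SD, n = 3 each). The log2 change was 0.14 (SE 0.54, adjusted p = 0.911 by edgeR's quasi-likelihood F test over the 948 peaks that passed the filter on low counts). The change turned to −0.18 when libraries were scaled by their summed counts in the 948 tested peaks, without TMM. In the other settings it ran from 0.09 to 0.59. This peak was the only one of the 25 member peaks to pass the filter on low counts. Of all 948 tested peaks 25.4% were called higher and 13.1% lower at 24 h PBM (38.5% in either direction), and 1 tested member peak cannot be read against that share. With no filter, edgeR called 0 of the 25 member peaks, with 1 at an unadjusted p under 0.05, and 0.31% of all 100836 peaks. The member peak under 0.05 was that of supercont1.202_23244 (log2 change 4.91, unadjusted p = 0.0148, adjusted p = 0.369 by the same F test). Of its 10 counts, 8 came from 24 h PBM replicate 3. DESeq2 gave an adjusted p for 3 member peaks and called 0 of them, with 0 of the 25 at an unadjusted p under 0.05, and called 6.98% of the 5041 peaks that had an adjusted p. Of the 60 tested peaks on known miRNA precursors, 4 were called higher and 0 lower. In whole tissue, fewer cells that make an RNA and less of it in each cell cannot be told apart.

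After supercont1.309_14750, the members with most AGO1 counts held 3 to 11. supercont1.329_39551, with 9205 mature reads, no star read and a score of 1.0, had 2, 1 and 0 counts at 72 h PE and 1, 2 and 5 at 24 h PBM. supercont1.202_23244 (aae-miR-new12) had none at 72 h PE and 2, 0 and 8 at 24 h PBM, so most of its 10 counts came from 24 h PBM replicate 3. Its 5′ end matched that of the peak. Both were covered on the mature strand.

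supercont1.141_12513 (325 mature reads, no star read, score 2.2) had 2, 0 and 1 counts at 72 h PE and 2, 0 and 1 at 24 h PBM. supercont1.620_32245 (1399 mature and 31 star reads, score 2.1) had 0, 1 and 1 and then 0, 2 and 2. Both were spread over 4 libraries of the 2 times, and the 5′ end of both peaks was the predicted one. supercont1.65_43735 (70 mature and 30 star reads, score 47.6) had 1 count in 72 h PE replicate 3 and 5 in 24 h PBM replicate 2, all on the star strand. supercont1.144_8977 had 5 counts in a peak of 63 bases that reached beyond the hairpin. All 4 counts of supercont1.319_2899 came from 24 h PBM replicate 1, and all 3 of supercont1.121_43333 from 72 h PE replicate 2. Those of supercont1.394_40541 (3) came from 24 h PBM replicates 1 and 2.

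**Figure D3:**
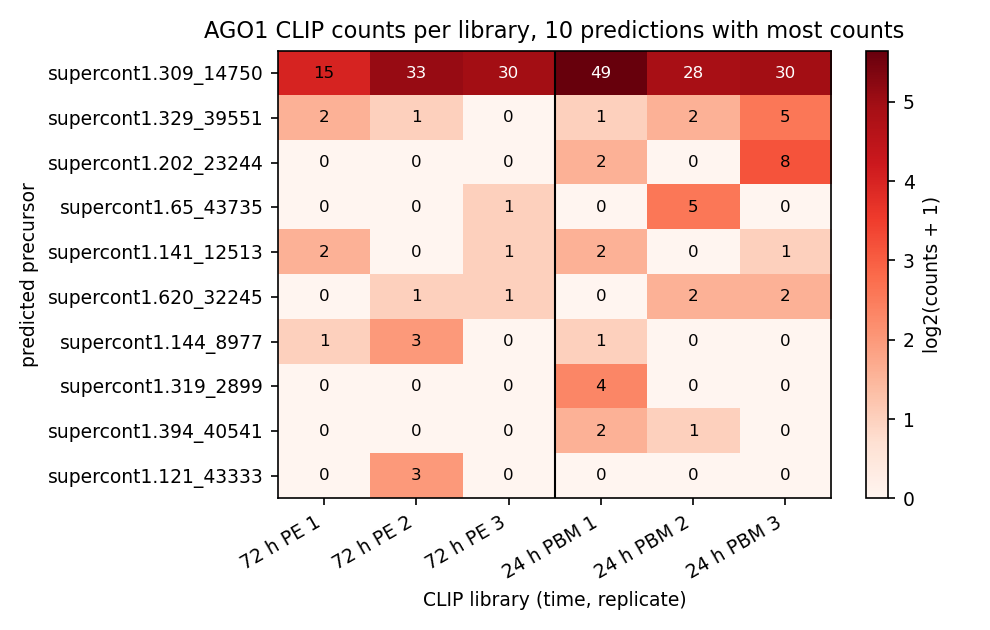
AGO1 CLIP counts of the 10 predictions with most counts (rows) in each of the 6 libraries (columns, 72 h PE left of the line and 24 h PBM right of it); numbers are raw counts and the colour is log2(counts + 1). The first row has 15 to 49 counts in every library, star peak included, and the other rows have at most 8 in any.

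Together the 25 peaks held 257 of 575708 AGO1 counts, of which the main peak of supercont1.309_14750 held 70.4%. Their share was 0.0262% (Wilson 95% interval 0.0173 to 0.0397), 0.0410% (0.0306 to 0.0551) and 0.0475% (0.0339 to 0.0667) in the 72 h PE libraries. It was 0.0520% (0.0411 to 0.0658), 0.0442% (0.0324 to 0.0601) and 0.0533% (0.0403 to 0.0705) in those of 24 h PBM. The groups overlapped, at 0.0383% ± 0.0109 against 0.0498% ± 0.00494 (SD, n = 3 each; two-sided exact permutation test, p = 0.2, where 3 against 3 cannot go below 0.1). With same-numbered libraries taken as pairs, the share was higher at 24 h PBM in 3 of 3 pairs, by 0.0115 percentage points on average (two-sided exact paired permutation test, p = 0.25, the smallest that 3 pairs allow). Peaks on known miRNA precursors held 21.2% ± 4.05 and 23.8% ± 2.23 of the counts (exact permutation p = 0.4). Without the main peak of supercont1.309_14750, 3 to 13 counts were left per library at 72 h PE and 12 to 22 at 24 h PBM. Their shares, 0.00827% ± 0.00390 and 0.0168% ± 0.00372, did not overlap (exact permutation p = 0.1, the smallest possible). Counts at 24 h PBM alone were found in 12 of the 25 peaks, at 72 h PE alone in 5, and at both times in 8. Of all peaks, 40.3% had counts at 24 h PBM alone, 43.2% at 72 h PE alone and 16.6% at both. The 24 h PBM libraries were also deeper in sum, with 315229 counts against 260479.

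The share of members with a peak was set beside that of known miRNA families with similar reads, though which libraries the reads of the predictions were pooled over is not stated. Reads of a known family were summed over its arms and over the 15 small RNA libraries. Those of a predicted strand are of the mature strand alone. The 15 libraries span 5 times, and the AGO1 libraries cover only 2 of these. Reads of a known family from the other times thus have no AGO1 counts to set beside them. At 1000 to 10000 reads, 9 of 14 known families had a peak. Of the predicted strands in this range, 6 of 8 with a single precursor had one and 0 of 8 with several precursors. The highest counts were 185 on a predicted strand and 1812 on a known family. At 100 to 1000 reads, 10 of 36 single strands and 0 of 8 repeated ones had a peak, against 8 of 13 known families. Only 5 predicted strands, 3 of them repeated, had 10000 reads or more, from 15381 to 410613. A peak was found for 2 of the 5, that of supercont1.210_241 on its star strand only, against 35 of 38 known families within these reads. For aae-miR-new12, with 410613 reads and 10 AGO1 counts, the comparison is with 21 known families of 100000 to 1000000 reads, which held 1 to 18325 counts with a median of 668. Known families with many reads and few counts also occurred, among them mir-2941 (204250 reads, 1 count), mir-317 (2030377 and 12) and mir-10 (398010 and 17). Others were mir-9a (94095 and 5), mir-309b (28504 and 6) and mir-1891 (21074 and 2). No peak was found for mir-286b, mir-309a and mir-375, at 81134, 36512 and 35889 reads. What part of the reads of these known families came from times without AGO1 libraries was not tested.

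**Figure D4:**
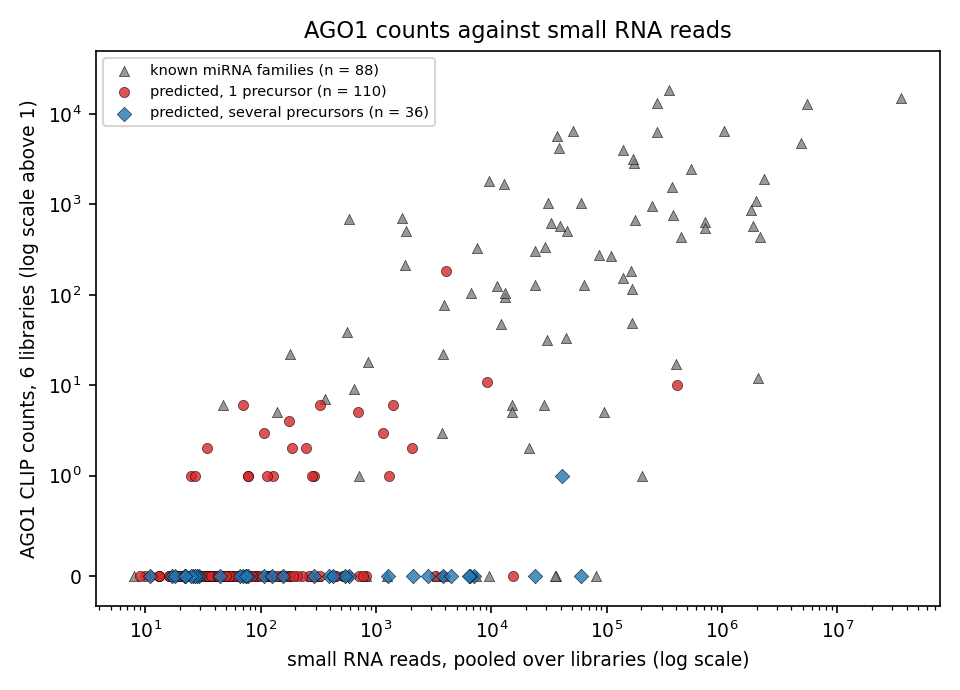
Small RNA reads pooled over libraries (x, log axis) against AGO1 CLIP counts over 6 libraries (y, log above 1) for 88 known miRNA families (triangles), 110 predicted mature strands of 1 precursor (circles) and 36 of several precursors (diamonds). Predicted strands lie at or below 11 AGO1 counts but for supercont1.309_14750 at 185, and a single diamond lies above 0.

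Peaks were found almost only on precursors whose mature strand occurred in a single precursor. Of the 110 such mature strands 23 had a peak on either arm (20.9%), and of the 36 with several precursors 1 had (2.78%). At 1000 reads or more, 7 of 10 single strands and 1 of 11 repeated ones had a peak. The exception among repeated strands was supercont1.210_241 of the seed group UUACCAU, with 1 count, on its star strand, in 24 h PBM replicate 3. The sequence of that star strand differs from the star strand of the other copies, so this peak did not lie on a repeated sequence. The star strand of this copy held 867 reads, while that of the other copies held 5627. How reads that match several places were treated is not given in the sources used here for either assay, and its part in these numbers was not tested.

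The small RNA libraries held reads of all marker miRNAs listed for other tissues. The 5 ovary and embryo miRNAs made up 0.00115% to 1.82% of the known miRNA reads of a library, the 3 midgut ones 0.340% to 21.4%, the 2 muscle ones 0.0379% to 0.119%, and the 2 neural ones 0.000878% to 0.00604%. The highest midgut share stood in 1 library of 48 h PBM. Since the reads of the predictions are pooled, their levels could not be followed over libraries or times, and the part of these tissues in them was not tested.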

How the data were processed

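The prediction table holds miRDeep2 scores and raw mature and star read counts that the authors pooled over libraries, per the file headers; the libraries pooled and the miRDeep2 settings remain unstated. The peak table holds raw counts per peak and library, deposited over 1 common peak set on AaegL3 supercontigs, per the deposited column explanations (69424 to 132758 counts per library). The miRNA table holds raw read counts of 124 mature miRNAs, deposited by the authors. Tools named in the submitters' processing notes, with no role, include bedtools 2.17.0, Bowtie2 2.2.3 and TopHat2 2.0.14. The labels list 1 entry per assay and time, and the tables give 3 replicate columns for each. Intervals cover counting error only.

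In all 201 rows the precursor length equals end minus start, as for starts counted from 0, so 1 was added to printed starts; peak lengths do the same. Overlap needed 10 bases on the same strand. Peaks were tested with edgeR 4.0.16 (R 4.3.3; TMM, filterByExpr, robust quasi-likelihood F test, two-sided, Benjamini-Hochberg at 0.05 over all tested peaks), with DESeq2 1.42.0 as an alternative. The test was tried on simulated data. Replicate numbers paired the CLIP libraries by the data (correlations of deviations of 0.386, 0.222 and 0.323), though no label says so. Hairpins were folded with RNAfold 2.7.2. Members and lists were chosen with earlier results of these data known. Named members are the 10 undocumented ones of highest score, the 10 with most AGO1 counts, the 5 largest clusters and seed groups, undocumented copies of documented strands, and those next to a score of 5; others were named after their values were seen, among them the documented ones and those with star reads above mature reads.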

Additional observations from a re-analysis of the deposited data

How the results depend on the processing

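The count of 24 predictions with an AGO1 peak was 24 with an overlap of 1 base or with starts counted from 1, 23 with 18 bases and 20 on the mature strand. It fell to 10 for scores of at least 5 or at least 10, to 3 with peaks of at least 10 counts, to 2 on the opposite strand, to 1 with peaks found in all 6 libraries, and to 0 when 50% of the precursor had to be covered, where the median lengths were 22 bases for peaks and 61 for precursors. The 18 clustered members became 8 at 1 kb and 12 to 26 in the other settings tried. No member peak was called in any setting tried. The log2 change of supercont1.309_14750 turned to −0.18 with the summed counts of the tested peaks in place of TMM (adjusted p = 0.818 by edgeR's F test). It was 0.19 with the replicate block, 0.09 to 0.50 without single libraries and up to 0.59 (DESeq2). Adjusted p by edgeR or DESeq2 ran from 0.412 to 0.974. Without the TMM scaling the median of all tested peaks moved from −0.09 to −0.38. The replicate block changed no call among the members; the paired test of the share, chosen after seeing the data, gave p = 0.25 (exact permutation). The difference in the share of counts, 0.0115 percentage points, was 0.00554 without 72 h PE replicate 1 and 0.0162 without 72 h PE replicate 3, the lowest and highest without a library. AGO1 depth limits the comparison over time to 1 member.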

Other observations

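Some predictions mirrored each other. The mature strand of supercont1.69_14376 and supercont1.1064_15020, which carry no earlier name, was the exact reverse complement, over all 22 bases, of that of aae-miR-11926 at supercont1.607_44822 and supercont1.21_878. The first had 585 and 579 reads at its 2 precursors and the second 423 at each, and none of the 4 had an AGO1 peak.

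supercont1.69_14376: cAUGGGACaauuaugcguuuau

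supercont1.607_44822: aUAAACGCauaauugucccaug

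At 2 places hairpins were predicted on both strands of the same DNA, overlapping by 61 bases each. On supercont1.339 these were aae-miR-11921 (plus strand, 394 mature reads) and supercont1.339_15348 (minus strand, 447), and on supercont1.622 supercont1.622_4658 (173) and supercont1.622_4649 (176). The reads of both strands were thus of like size at both places. None of these hairpins had an AGO1 peak on its own strand.

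Several members with a low score had many reads. The strand of supercont1.226_3232 held 6362 mature reads without a star read in 2 precursors, and that of supercont1.652_10802 up to 7113 in 3, with scores of 2.1 to 3.1 and no AGO1 peak. supercont1.48_32300 scored 0 with the same mature strand, of 3831 reads, that scored 2111.9 at supercont1.94_43960 and supercont1.975_43674, where the star strand had 312 reads against its 8.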
